A study of Homo sapiens with 6 samples.

Results

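Receptor tyrosine kinases are membrane proteins that bind a growth factor or matrix protein outside the cell, pair up, and phosphorylate tyrosines on themselves and on adaptor proteins inside it. The phosphorylated receptor recruits adaptors that switch on the RAS, PI3-kinase and STAT pathways, and phosphatases, ubiquitin ligases and endocytosis end the signal. In the liver, MET and EGFR are known for driving hepatocyte growth after injury, and AXL is known from invasive, mesenchymal-like tumour cells. The 9 receptors described here, EGFR, ERBB2, MET, AXL, IGF1R, FGFR1, INSR, EPHA2 and DDR1, were chosen by gene symbol, and all 9 were found among the 11593 gene symbols of the deposited files. They held 47 of the 28768 listed transcripts.

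The study addressed which messenger RNAs are retrieved with probes against SNHG10, a long noncoding RNA, in SK-Hep1, a human line labelled as hepatocellular carcinoma. Of the 6 libraries, labelled as ChIRP (capture of an RNA and what is bound to it with antisense probes), 3 were made with a complete SNHG10 probe set and 3 with a LacZ control probe set, which targets a bacterial gene. The SNHG10 probes came from RiboBio and the LacZ probes from Millipore, so probe target and supplier cannot be told apart. No treatment or genetic change was named for either group, and SNHG10 itself was not among the rows and was not analysed here. The labels' protocol describes Trizol RNA and libraries from total RNA, with no capture step, so whether captured or total RNA was sequenced is not clear from the labels.

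Values are FPKM, a level scaled to transcript length and to the size of the library, so levels can be set side by side between genes. Summed FPKM lay within 268794 to 272909 in SNHG10 libraries, against 271354 to 277118 in LacZ libraries, at an unknown read depth. Of 12 hepatocyte markers, 2 had rows, with a summed level of 1.04 to 1.72 FPKM in the SNHG10 libraries, against 1.25 to 2.12 in the LacZ libraries, and ALB, AFP and HNF4A were not among them. Of 11 endothelial markers, ENG, EGFL7 and ROBO4 had rows, with means of 35.5, 13.8 and 1.47 FPKM. PECAM1, VWF, CDH5, KDR, TEK, TIE1, CLDN5 and EMCN did not. Of 6 epithelial markers, KRT8 and KRT18 had rows, and CDH1, EPCAM, CLDN4 and ESRP1 did not. KRT18, a keratin of simple epithelia, read 945 to 1122 FPKM and VIM, the mesenchymal filament, 833 to 1522 over the 6 libraries. Of 9 mesenchymal or stellate markers, 7 had rows, and COL1A2 and DES did not. Beside VIM, the means were 1.84 FPKM for CDH2, 2.14 for COL1A1 and 1.67 for PDGFRB. They were 6.26 for TAGLN, 23.3 for COL3A1 and 23.8 for ACTA2. Of 5 biliary markers, KRT7, KRT19 and SOX9 had rows, with means of 18.8, 413 and 45.3 FPKM, and EPCAM and CFTR did not. The liver identity in the label was therefore not visible in hepatocyte markers. In bulk libraries, fewer cells with a transcript and less RNA per cell cannot be told apart.

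AXL was by far the most abundant of the 9 receptors, with a mean of 265 FPKM over the 6 libraries, and INSR the least, with 2.94. AXL ranked 129 among all 11593 genes by mean level. It was above every other receptor of the 9 in each of the 6 libraries, at 2.48 to 6.30 times EGFR, the next in the order. EGFR (mean 65.0 FPKM), EPHA2 (55.6) and MET (53.7) followed and could not be ordered beyond their spread. EGFR was above EPHA2 in 3 of 6 libraries, and EPHA2 above MET in 4. These 3 were above DDR1 (24.1) and the rest in all 6 libraries. DDR1 was above ERBB2 (20.1) in 3 libraries, ERBB2 above IGF1R (12.1) in 4, and IGF1R above FGFR1 (7.48) in 3, so neighbours in this stretch were not ordered beyond their spread. DDR1 was above both IGF1R and FGFR1 in all 6 libraries. INSR was below IGF1R in all 6 and below FGFR1 in 5. Together the 9 held 481, 532 and 488 FPKM in the SNHG10 libraries, against 453, 591 and 491 in the LacZ libraries, of which AXL made up 48.5% to 58.6%.

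**Figure D1:**
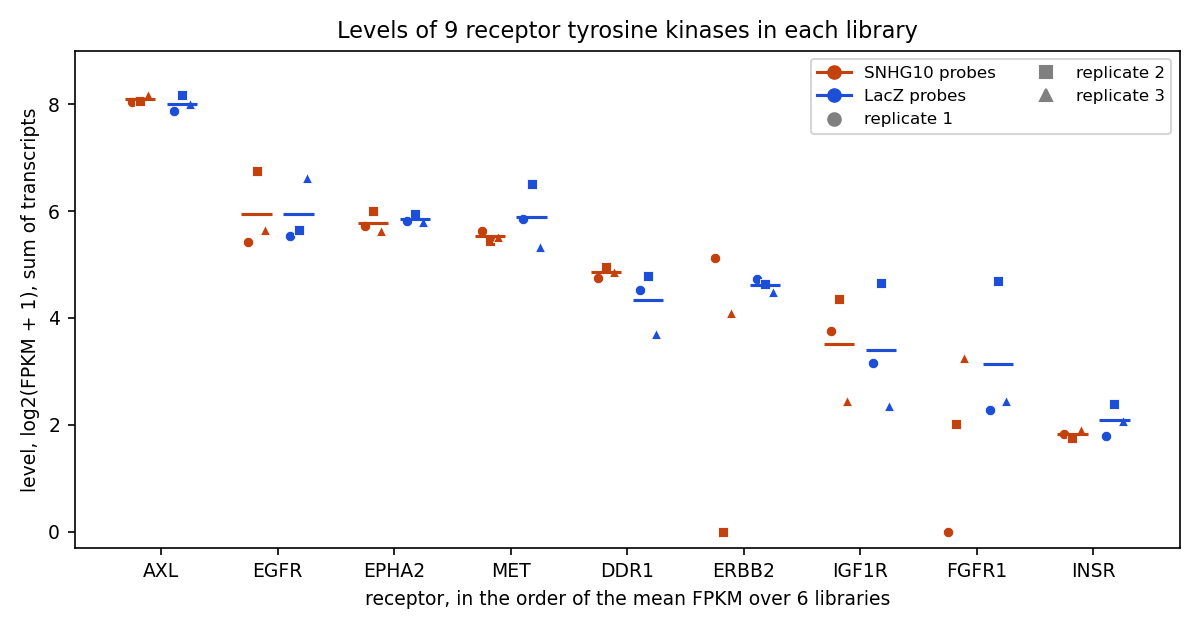
Level of each receptor as log2(FPKM + 1), summed over its transcripts, for 3 SNHG10 libraries (orange, left) and 3 LacZ libraries (blue, right). Symbols mark the replicate number and bars the mean of the log2 values, left out where a library was listed at 0. AXL lies between 233 and 287 FPKM in every library, while ERBB2 and FGFR1 each have 1 SNHG10 library at 0.

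No receptor passed the test for a difference between the probe sets. Of the 9 receptors, all of which passed the filter on low values, 0 were past the threshold of 0.05 in limma's adjusted p, as were 0% of the 10304 genes tested. At an unadjusted p under 0.05 the count was 0 of 9, against 5.42% of all genes, and limma without trend and robust eBayes also called 0 genes. For none of the 9 did the libraries of one probe set lie wholly above or below the other, against 11.4% of all genes. The log2 difference, SNHG10 minus LacZ taken after adding a pseudocount of 1 FPKM and so understating low genes, was positive for 4 receptors and negative for 5. Its median was -0.07 over the 9 and -0.05 over all genes tested.

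AXL, the receptor for the vitamin K-dependent ligand GAS6, was also the steadiest receptor. It read 264, 265 and 286 FPKM in the SNHG10 libraries, against 233, 287 and 255 in the LacZ libraries. The libraries overlapped, and the highest and the lowest value were both LacZ libraries. The means were 272 ± 12.5 FPKM in SNHG10 and 258 ± 26.8 FPKM in LacZ libraries (SD, n = 3 each), with a log2 difference of 0.08 ± 0.11 (SE), a limma adjusted p of 0.942 and an exact permutation p of 0.5, where the smallest possible is 0.1. Between libraries of the same probe set AXL had a pooled SD of 0.11 (log2), and 4.16% of the genes tested had a smaller one.

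The AXL gene (chromosome 19, 41725108 to 41767671, plus strand, hg19) had 3 listed transcripts, and its steady sum was made of 2 rows that varied more than the sum. AXL-202, which ends 1.47 kb before the longest row, read 212, 192 and 239 FPKM in the SNHG10 libraries, against 146, 226 and 187 in the LacZ libraries. AXL-201, spanning the whole listed locus, read 51.7, 72.3 and 46.3 FPKM in the SNHG10 libraries, against 86.8, 59.2 and 67.7 in the LacZ libraries. The library with the most AXL-201, LacZ replicate 1, had the least AXL-202, and the library with the least AXL-201, SNHG10 replicate 3, had the most AXL-202. AXL-201 alone had a log2 difference of -0.33 ± 0.23 (SE), and AXL-202 one of 0.22 ± 0.18, with a limma adjusted p of 0.951 for each. AXL-203 stayed at or under 0.810 FPKM.

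EGFR, the receptor for epidermal growth factor and its relatives, stood apart in 1 library of each probe set. It read 41.9, 107 and 49.1 FPKM in the SNHG10 libraries, against 45.5, 49.3 and 97.8 in the LacZ libraries. SNHG10 replicate 2 and LacZ replicate 3 were high, and the other 4 libraries lay between 41.9 and 49.3. The means were 65.9 ± 35.5 FPKM in SNHG10 and 64.2 ± 29.1 FPKM in LacZ libraries (SD, n = 3 each), with a log2 difference of 0.00 ± 0.40 (SE) and a limma adjusted p of 1.00 (exact permutation p = 1). Without SNHG10 replicate 2 the SNHG10 mean was 45.5 FPKM, and without LacZ replicate 3 the LacZ mean was 47.4.

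The excess of EGFR in those libraries lay in transcripts other than EGFR-201. EGFR-201, which spans nearly the whole listed locus (chromosome 7, 55086714 to 55279321, plus strand), read 40.2, 28.6 and 43.6 FPKM in the SNHG10 libraries, against 43.9, 47.0 and 26.3 in the LacZ libraries, so it was lower in the 2 libraries with a high sum than in the other 4. EGFR-204, whose locus ends 54.7 kb before the end of EGFR-201, read 1.71, 53.1 and 3.18 FPKM in the SNHG10 libraries, against 1.60, 1.16 and 38.8 in the LacZ libraries. It made up 49.8% of the EGFR sum in SNHG10 replicate 2 and 39.7% in LacZ replicate 3, and at most 6.48% elsewhere. The rest of the excess lay in EGFR-202, ending 43.0 kb early, at 21.9 FPKM in SNHG10 replicate 2, and in EGFR-207, ending 8.55 kb early, at 31.2 FPKM in LacZ replicate 3. EGFR-202 was at most 0.814 FPKM and EGFR-207 at most 1.43 in the other libraries. How the FPKM program divided reads shared by these rows is not stated. EGFR also has an antisense gene, and since strand use in counting is not stated, reads of the pair cannot be told apart.

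ERBB2, which has no ligand of its own and pairs with other ERBB receptors, was listed at 0 in 1 library. It read 33.9, 0 and 15.99 FPKM in the SNHG10 libraries, against 25.4, 23.8 and 21.3 in the LacZ libraries. SNHG10 replicate 2 was at 0 in all 6 ERBB2 rows, while SNHG10 replicate 1 was the highest of all 6 libraries. Among the 4255 genes averaging 10 FPKM or more, 9 were listed at 0 in SNHG10 replicate 2 and 4 to 8 in each of the other libraries. RRM1, which dividing cells use, was among those at 0 in the same library. It read 1.4e-05 FPKM in SNHG10 replicate 3, 15.3 in SNHG10 replicate 1 and 18 to 23.5 in the LacZ libraries. Whether a 0 is a failed estimate was not tested. The log2 difference of ERBB2 was -1.54 ± 1.14 (SE), with a limma adjusted p of 0.928, and -0.01 without SNHG10 replicate 2. Without SNHG10 replicate 1 it was -2.57, with an unadjusted limma p of 0.0455 and an adjusted p of 0.882. This was its smallest p over the leave-one-out runs, and 580 of 10304 genes were under an unadjusted 0.05 in that run.

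The ERBB2 sum (chromosome 17, 37844167 to 37884915, plus strand) was carried by different rows in different libraries. ERBB2-218 read 19.9, 0 and 0.705 FPKM in the SNHG10 libraries, against 20.3, 14.4 and 0.445 in the LacZ libraries. ERBB2-201 read 0, 0 and 15.3 FPKM in the SNHG10 libraries, against 0, 0 and 9.07 in the LacZ libraries, so both rows were seen together only in replicate 3 of each probe set. ERBB2-213, spanning 7.40 kb within the gene, held 10.6 FPKM in SNHG10 replicate 1, and ERBB2-219, with the longest span, read 9.36 FPKM in LacZ replicate 2 and 0 elsewhere. No ERBB2 row was above 0 in all 6 libraries, although the LacZ sums lay within 21.3 to 25.4 FPKM.

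MET, the receptor for hepatocyte growth factor, was spread more widely in the LacZ libraries. It read 48.7, 42.7 and 44.7 FPKM in the SNHG10 libraries, against 57.0, 90.1 and 39.0 in the LacZ libraries. LacZ replicate 2 was high and LacZ replicate 3 was the lowest library. The means were 45.4 ± 3.07 FPKM in SNHG10 and 62.0 ± 25.9 FPKM in LacZ libraries (SD, n = 3 each), and the log2 difference was -0.36 ± 0.28 (SE), with a limma adjusted p of 0.928 (exact permutation p = 0.4). Without LacZ replicate 2 the LacZ mean was 48.0 FPKM and the log2 difference -0.06. Without LacZ replicate 3 the difference was -0.65 with a limma adjusted p of 0.913 and an unadjusted one of 0.0248. This was the smallest p of MET over the leave-one-out runs, and 523 of 10304 genes were under an unadjusted 0.05 in that run.

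The MET row that spans the locus varied little. MET-202 (chromosome 7, 116312446 to 116438440, plus strand) read 27.8, 35.2 and 36.8 FPKM in the SNHG10 libraries, against 33.2, 27.8 and 34.8 in the LacZ libraries, a 1.33-fold range against 2.31-fold for the MET sum. Its log2 difference was 0.05 ± 0.19 (SE; limma adjusted p = 0.981), opposite in sign to that of the sum. MET-206, which covers the first 27.2 kb of the gene, read 15.05, 6.05 and 7.53 FPKM in the SNHG10 libraries, against 21.3, 32.7 and 3.72 in the LacZ libraries. In LacZ replicate 2, MET-206 was joined by MET-203 at 19.4 FPKM and MET-205 at 10.1, rows of 11.4 kb and 5.41 kb inside the locus. MET-205 was at 0 in the other 5 libraries, so the short rows held most of the MET sum in LacZ replicate 2.

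**Figure D2:**
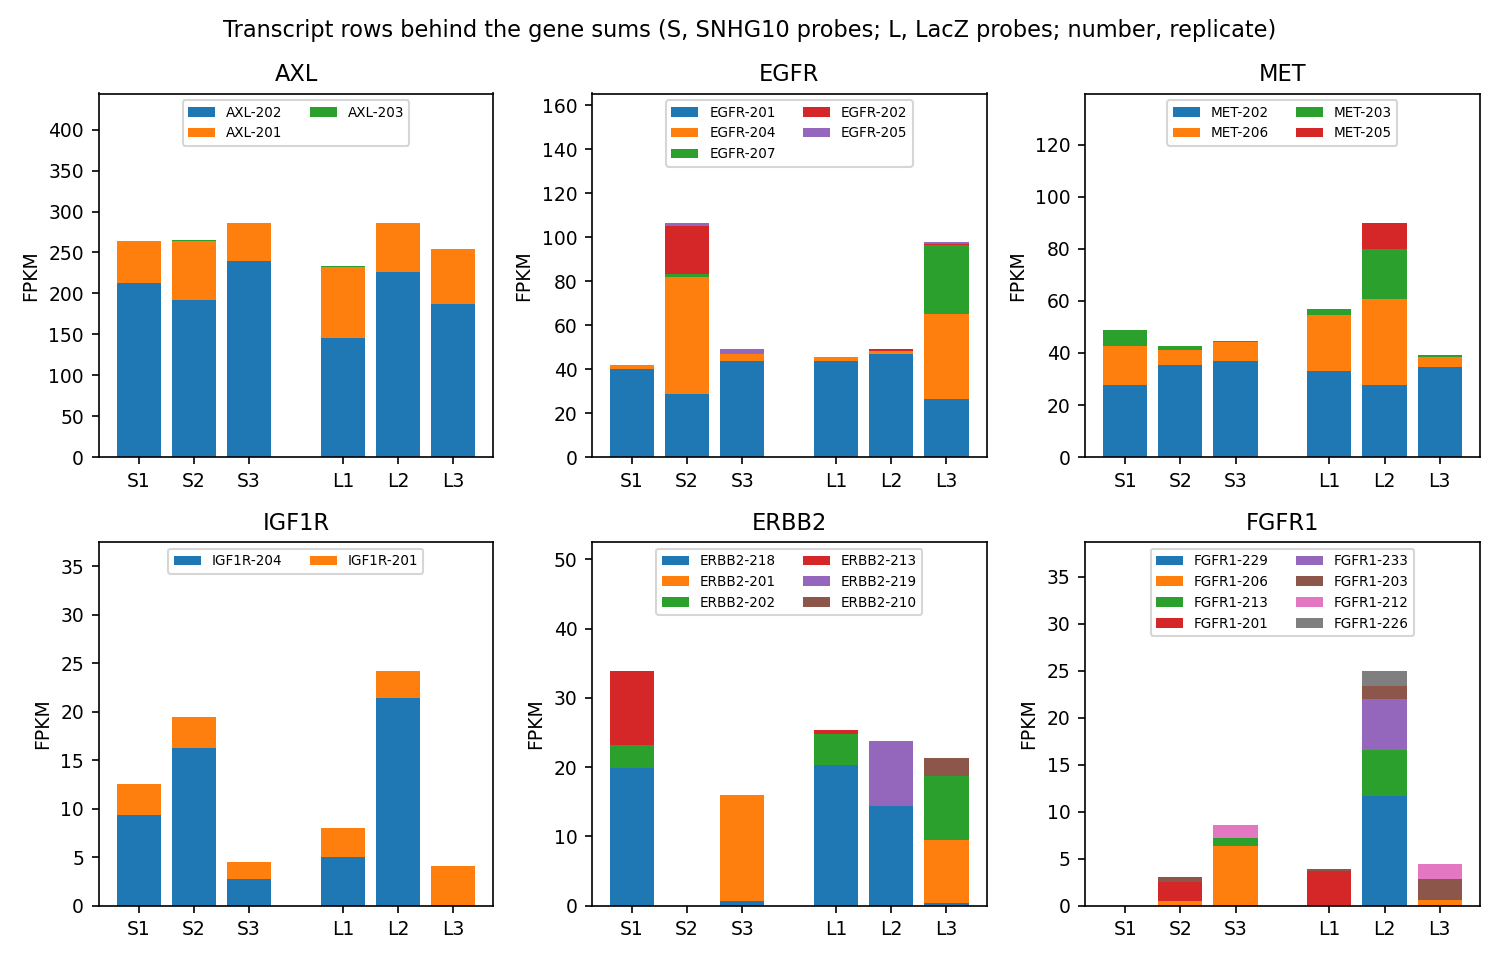
FPKM of each listed transcript, stacked to the gene sum, for 6 receptors in the 3 SNHG10 libraries (S1 to S3) and the 3 LacZ libraries (L1 to L3). MET-202 stays between 27.8 and 36.8 FPKM, EGFR-201 is at 28.6 in S2 and 26.3 in L3, and the tall EGFR bars of S2 and L3 and the tall MET bar of L2 are mostly other rows.

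EPHA2, a receptor for ephrin-A ligands on neighbouring cells, had 1 listed transcript and was nearly as steady as AXL. EPHA2-201 (chromosome 1, 16450832 to 16482582, minus strand) read 51.8, 62.8 and 48.3 FPKM in the SNHG10 libraries, against 55.1, 61.0 and 54.7 in the LacZ libraries. The LacZ libraries lay inside the range of the SNHG10 libraries. The means were 54.3 ± 7.56 FPKM in SNHG10 and 56.9 ± 3.53 FPKM in LacZ libraries (SD, n = 3 each), with a log2 difference of -0.07 ± 0.15 (SE) and a limma adjusted p of 0.961 (exact permutation p = 0.6).

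DDR1, a receptor for collagens, had the smallest unadjusted limma p of the 9, 0.113. It read 26.0, 29.9 and 27.9 FPKM in the SNHG10 libraries, against 22.0, 26.7 and 12.1 in the LacZ libraries. The libraries overlapped, since LacZ replicate 2 was above SNHG10 replicate 1, and LacZ replicate 3 was low. The means were 27.9 ± 1.98 FPKM in SNHG10 and 20.2 ± 7.46 FPKM in LacZ libraries (SD, n = 3 each), with a log2 difference of 0.51 ± 0.29 (SE), a limma adjusted p of 0.916 and an exact permutation p of 0.2. Without LacZ replicate 3 the LacZ mean was 24.3 FPKM and the log2 difference 0.20, and without LacZ replicate 2 the difference was 0.74 with a limma adjusted p of 0.922 and an unadjusted one of 0.0370.

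DDR1 (chromosome 6, 30848626 to 30867933, plus strand) was split over 17 listed transcripts, none of which reached 1 FPKM in all 6 libraries. Rows at 1 FPKM or more numbered 8, 7 and 9 in the SNHG10 libraries, against 4, 3 and 4 in the LacZ libraries. Such a count lay wholly higher for 1.1% and wholly lower for 1.36% of the 7010 genes with 2 or more rows. Genes with few rows, whose counts take few values and often tie, are included, so this is not a like share for the 17 rows of DDR1. FGFR1 leaned the other way, with 0, 1 and 2 rows in the SNHG10 libraries, against 1, 5 and 2 in the LacZ libraries, and overlapped. These row counts were singled out after their values were seen and were not tested. DDR1-235, a row of 7.79 kb in the first part of the gene, read 6.58, 4.88 and 1.87 FPKM in the SNHG10 libraries, against 11.8, 11.9 and 0.205 in the LacZ libraries. DDR1-225, which runs to the 3′ end, read 5.85, 6.08 and 4.58 FPKM in the SNHG10 libraries, against 0, 7.33 and 2.41 in the LacZ libraries. Of the 17 rows, 7 were above 0 in SNHG10 libraries and listed at 0 in all LacZ libraries, and 1 was the other way round. Over all 47 receptor rows these counts were 7 and 7, since FGFR1 had 3, ERBB2 2 and MET 1 seen in LacZ libraries alone, and over all 28768 rows the shares were 10.6% and 11.4%. Among the 7 DDR1 rows, DDR1-265 read 2.62, 0 and 2.09 FPKM and DDR1-271 1.92, 0 and 3.65 in the SNHG10 libraries, so SNHG10 replicate 2 was at 0 as well. None of these 7 passed the filter for testing.

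IGF1R and INSR, the paired receptors of insulin-like growth factors and insulin, came at positions 7 and 9 of the 9 by mean level. IGF1R read 12.6, 19.4 and 4.46 FPKM in the SNHG10 libraries, against 7.98, 24.2 and 4.12 in the LacZ libraries. Replicate 3 was the lowest of each probe set and replicate 2 the highest. The means were 12.2 ± 7.498 FPKM in SNHG10 and 12.1 ± 10.7 FPKM in LacZ libraries (SD, n = 3 each), with a log2 difference of 0.13 ± 0.67 (SE) and a limma adjusted p of 0.987 (exact permutation p = 0.9).

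Most of IGF1R (chromosome 15, 99192200 to 99507759, plus strand) was read, in 5 of 6 libraries, in a row that ends early. IGF1R-204, which begins 58.9 kb after the gene's start and ends 72.9 kb before its end, read 9.32, 16.3 and 2.73 FPKM in the SNHG10 libraries, against 5.03, 21.4 and 0 in the LacZ libraries. The row that spans the locus, IGF1R-201, read 3.28, 3.18 and 1.73 FPKM in the SNHG10 libraries, against 2.95, 2.82 and 4.12 in the LacZ libraries, close to INSR. The 2.38-fold range of IGF1R-201 compares with 5.88-fold for the IGF1R sum. INSR-202, the only INSR row (chromosome 19, 7112266 to 7293942, minus strand), read 2.56, 2.38 and 2.75 FPKM in the SNHG10 libraries, against 2.48, 4.28 and 3.18 in the LacZ libraries. LacZ replicates 2 and 3 lay above all SNHG10 libraries and LacZ replicate 1 did not. The INSR log2 difference was -0.26 ± 0.32 (SE), with a limma adjusted p of 0.936 (exact permutation p = 0.3).

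FGFR1, a receptor for fibroblast growth factors on chromosome 8, was listed at 0 in SNHG10 replicate 1. It read 0, 3.02 and 8.58 FPKM in the SNHG10 libraries, against 3.85, 25.0 and 4.45 in the LacZ libraries. LacZ replicate 2 was far above the other 5 libraries. In that library 3 rows that were at 0 everywhere else, FGFR1-229 at 11.7 FPKM, FGFR1-233 at 5.39 and FGFR1-226 at 1.64, gave most of the value. All 8 FGFR1 rows were at 0 in 1 or more libraries, and none passed the filter for testing on its own. The log2 difference of the FGFR1 sum was -1.39 ± 0.92 (SE), with a limma adjusted p of 0.928 (exact permutation p = 0.4). It was -0.61 without LacZ replicate 2 and -0.51 without SNHG10 replicate 1. Without SNHG10 replicate 3 it was -2.14, where limma's adjusted p was 0.911 and its unadjusted p 0.0505. This was its smallest p over the leave-one-out runs, and 548 of 10304 genes were under an unadjusted 0.05 in that run.

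**Figure D3:**
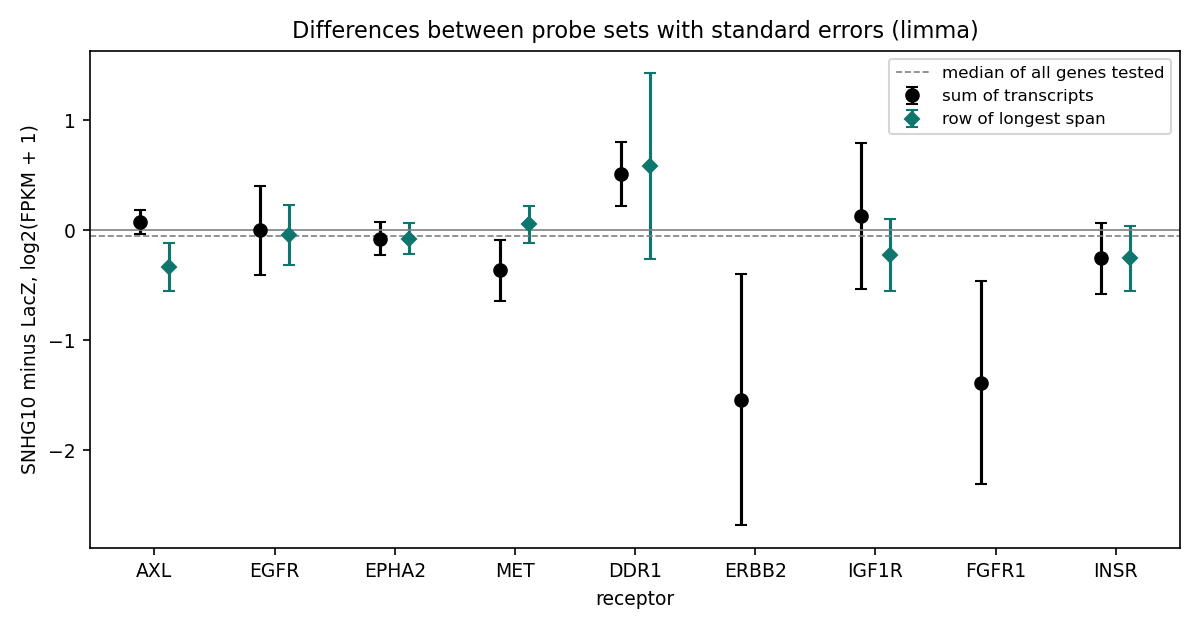
Log2 difference (SNHG10 minus LacZ, log2(FPKM + 1) scale) with its standard error from limma, for the sum of transcripts (circles) and the row with the longest genomic span (diamonds, absent where that row did not pass the filter). The broken line is the median of all genes tested, and the widest errors are those of ERBB2 and FGFR1, at 1.14 and 0.92 for the sums.

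The 9 receptors differed widely in how far libraries of the same probe set lay apart. The pooled SD (log2) between libraries of the same probe set was 0.11 for AXL, 0.15 for EPHA2 and 0.22 for INSR. The median over all genes tested was 0.40. Among those averaging at least 10 FPKM it was 0.23 with 1 listed row, 0.31 with 2 to 4 and 0.32 with 5 or more. EPHA2 and INSR have 1 row each, so INSR was near the median of such genes. INSR averaged only 2.94 FPKM, where the pseudocount of 1 narrows the spread. The pooled SD was 0.40 for DDR1, 0.42 for MET, 0.66 for EGFR, 1.08 for IGF1R, 1.51 for FGFR1 and 1.92 for ERBB2. For the row of longest span alone it was 0.39 for EGFR, 0.19 for MET and 0.31 for IGF1R, smaller than for their sums. It was 0.30 for AXL and 1.23 for DDR1, larger than for their sums, as was the median over all genes tested, at 0.53. LacZ replicate 2 held the highest value of 5 receptors (MET, AXL, IGF1R, FGFR1 and INSR), and SNHG10 replicate 2 of 3 (EGFR, EPHA2 and DDR1). Of the 47 transcript rows, 12 were above 0 in all 6 libraries, 9 reached 1 FPKM in all 6, and 26 were listed at 0 in 3 or more. Of the 17 rows tested, 0 passed limma's threshold, where 0.0903% of all 16618 rows tested did (0.0481% higher and 0.0421% lower). At an unadjusted p under 0.05 there were 0, against 5.66% of all rows (2.59% higher and 3.06% lower). Rows whose probe sets did not overlap also numbered 0, against 10.5% of all rows (4.48% higher and 6.06% lower).

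Beside the 9, 17 of the other 49 human receptor tyrosine kinases had rows, 13 of them with a mean of at least 1 FPKM. The 9 held 80.5% to 85.6% of the FPKM of all listed receptor tyrosine kinases in a library. ERBB3, the kinase-poor partner of ERBB2, read 21.9, 22.6 and 31.7 FPKM in the SNHG10 libraries, against 29.2, 26.2 and 25.0 in the LacZ libraries, near the mean of 24.1 for DDR1. RYK, a Wnt receptor, ranged from 10.7 to 21.3 FPKM over the 6 libraries, the ephrin receptors EPHA4 and EPHB4 from 2.49 to 21.5 and from 4.61 to 21.4, and FGFR4, the fibroblast growth factor receptor of hepatocytes, from 9.13 to 11.4. FGFR4 had a mean of 10.2 FPKM, above the 7.48 of FGFR1, and was above it in 5 of 6 libraries. LMTK2, ROR1, PTK7, KIT, MERTK, PDGFRB, TYRO3 and LMTK3 had means of 1.09 to 5.15 FPKM. MERTK and TYRO3, the relatives of AXL, were at 1.08 to 3.60 and 0.469 to 2.05 FPKM. STYK1, ROR2, EPHB1 and EPHB2 were under a mean of 1 FPKM. Of the 13 that passed the filter, 0 were called by limma and 0 had an unadjusted p under 0.05, against 0% and 5.42% of all genes tested. In log2 difference, 2 were above 0 and 11 below (4 and 9 with median-ratio scaling). Over all 10304 genes tested, 4458 were above 0 and 5846 below (5121 and 5183 with median-ratio scaling). The median was -0.21 over the 13, against -0.05 over all genes.

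**Figure D4:**
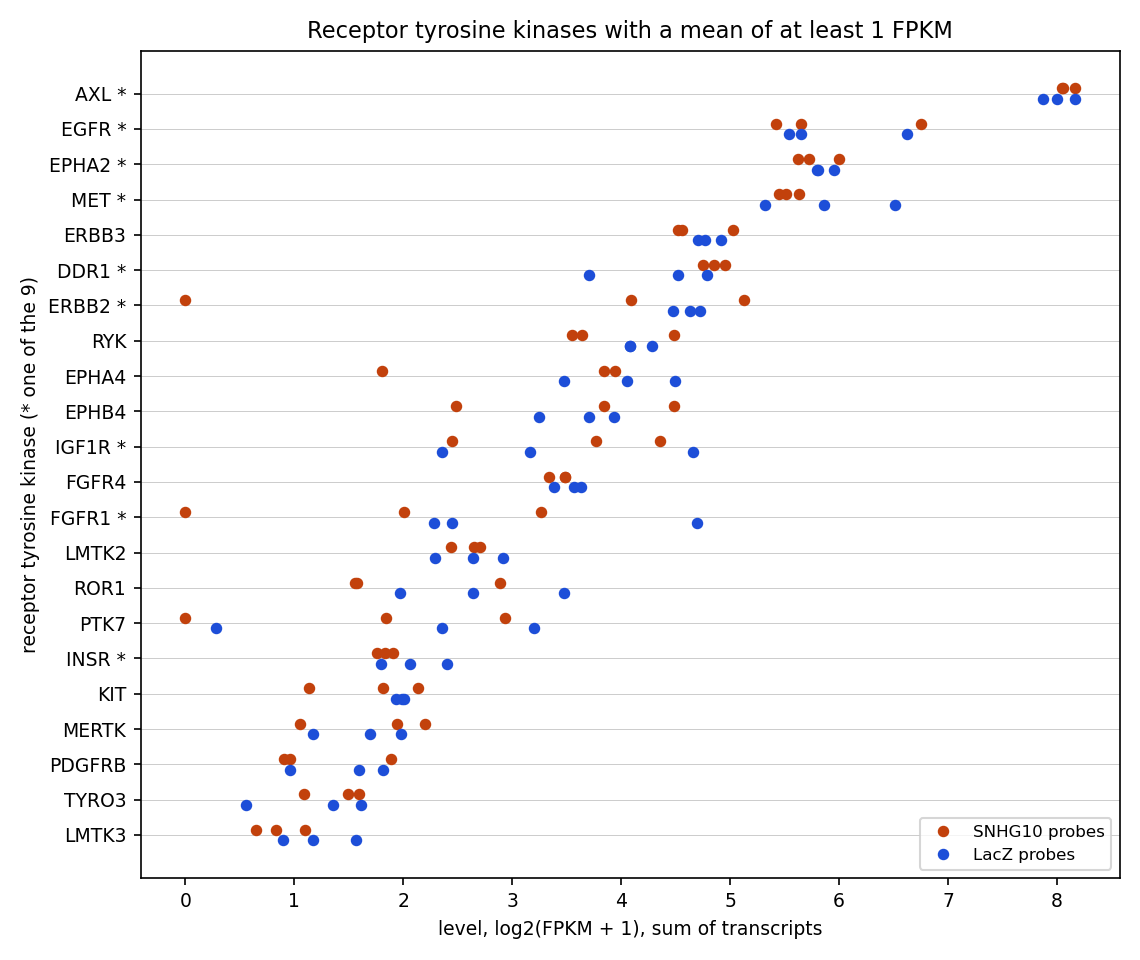
Level of every receptor tyrosine kinase with a mean of at least 1 FPKM, as log2(FPKM + 1), in the 3 SNHG10 libraries (orange, upper) and the 3 LacZ libraries (blue, lower). AXL stands alone at 233 to 287 FPKM, and ERBB3, at 21.9 to 31.7, is the most abundant receptor outside the 9, which are starred.

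The other 32 receptor tyrosine kinases of the list had no rows and were not analysed here. Among them were ERBB4, INSRR, PDGFRA, CSF1R, FLT3, FLT1, KDR, FLT4, FGFR2, FGFR3, NTRK2, NTRK3, MUSK, MST1R, TIE1, TEK, EPHA1, EPHA3, EPHA5, EPHA6, EPHA7, EPHA8, EPHA10, EPHB3, EPHB6, RET, DDR2, ROS1, AATK, ALK and LTK. By the root mean square difference of log2(FPKM + 1) over the 6 libraries, with 25 other receptors compared, the nearest to EGFR was EPHA2 (0.50), MET and EPHA2 were nearest to each other (0.38), and INSR was nearest to KIT (0.37). DDR1 was nearest to ERBB3 (0.48), IGF1R to EPHA4 (0.81), FGFR1 to ROR1 (1.15) and ERBB2 to RYK (1.62). AXL had no near neighbour, with EGFR the closest at 2.18.

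Ligands of the 9, or of a partner such as ERBB3, were mostly low. NRG1, GAS6 and FGF2 were the most abundant of the 18 that had rows out of 35. NRG1, the neuregulin that binds ERBB3, read 75.4, 65.7 and 76.8 FPKM in the SNHG10 libraries, against 85.8, 81.5 and 85.6 in the LacZ libraries. The NRG1 libraries did not overlap (7.21% of all genes tested did so in that direction), but its limma adjusted p was 0.927, with a log2 difference of -0.22 ± 0.12 (SE). GAS6, the ligand of AXL, read 31.2, 38.3 and 47.5 FPKM in the SNHG10 libraries, against 37.5, 28.8 and 35.4 in the LacZ libraries, and FGF2 read 35.4, 24.8 and 27.8 in SNHG10 and 34.7, 34.0 and 30.5 in LacZ libraries. COL3A1, a fibrillar collagen and so a DDR1 ligand, read 27.6, 24.1 and 27.5 FPKM in the SNHG10 libraries, against 17.5, 18.3 and 24.8 in the LacZ libraries. EPGN, an EGFR ligand, read 3.07, 5.56 and 5.34 FPKM in the SNHG10 libraries, against 0.549, 0 and 2.93 in the LacZ libraries. Its probe sets did not overlap (4.22% of all genes tested lay higher in that way), with a limma adjusted p of 0.885. HGF, EGF, TGFA, IGF1 and INS had no rows and were not analysed here. Of 17 ligands tested, 0 were called, as were 0% of all genes tested. At an unadjusted p under 0.05, 1 ligand, EPGN, was higher, where 2.1% of all genes were. The median log2 difference was 0.08.

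Among co-receptors and proteins that bind the ligands, 14 of 18 had rows and 0 were called by limma, as were 0% of all genes tested. IGFBP3, which carries insulin-like growth factors, read 291, 236 and 239 FPKM in the SNHG10 libraries, against 228, 177 and 210 in the LacZ libraries, the probe sets not overlapping (4.22% of all genes were higher in that way). Its log2 difference was 0.32 ± 0.13 (SE), with a limma adjusted p of 0.885. CD44, which presents growth factors to MET, read 232, 204 and 232 FPKM in the SNHG10 libraries, against 146, 285 and 150 in the LacZ libraries, and the heparan sulfate proteoglycan SDC4 read 67.6, 64.3 and 62.1 in SNHG10 and 49.0, 62.4 and 55.9 in LacZ libraries. IGFBP2, another carrier, read 0, 2.53 and 0.245 FPKM in the SNHG10 libraries, against 6.88, 7.73 and 2.00 in the LacZ libraries (limma adjusted p = 0.885). The list had 10 positive and 4 negative log2 differences, the same split with median-ratio scaling, where all genes tested had 4458 and 5846 without it. The median was 0.24, against -0.05 over all genes tested. At an unadjusted p under 0.05, 1 was higher (IGFBP3) and 1 lower (IGFBP2) of 14 tested, against 2.1% and 3.32% of all genes.

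Chaperones and proteases that mature or cut the receptors gave no call in 11 tested genes, where 0% of all genes tested were called. HSP90AB1, the chaperone that holds ERBB2 and other kinases, read 457, 513 and 473 FPKM in the SNHG10 libraries, against 483, 457 and 478 in the LacZ libraries. HSP90AA1 read 99.4, 91.7 and 168 FPKM in SNHG10 and 179, 104 and 106 in LacZ libraries, and HSP90B1, its relative of the endoplasmic reticulum, read 110, 99.6 and 110 in SNHG10 and 101, 109 and 97.5 in LacZ libraries. FURIN, which cleaves the MET, IGF1R and INSR precursors, read 4.19, 6.25 and 10.1 FPKM in the SNHG10 libraries, against 9.89, 10.6 and 13.1 in the LacZ libraries (limma adjusted p = 0.885). The median log2 difference of the list was -0.02, which was 0.03 with median-ratio scaling.

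Adaptors were read for all 30 genes of the list. Of 28 tested, 0 were called and 0 had an unadjusted limma p under 0.05, against 0% and 5.42% of all genes tested. Of these 28, 1 lay wholly lower with SNHG10 probes and 0 wholly higher, against 7.21% and 4.22% of all genes tested. SHC1, which links receptors to GRB2 and RAS, was the most abundant, at 134, 164 and 145 FPKM in the SNHG10 libraries, against 186, 190 and 158 in the LacZ libraries. Its libraries overlapped, and the log2 difference was -0.27 ± 0.13 (SE), with a limma adjusted p of 0.885. STAT3, a transcription factor that receptors activate, read 40.2, 41.2 and 46.6 FPKM in the SNHG10 libraries, against 44.6, 45.5 and 42.3 in the LacZ libraries. The phosphatase PTPN11, which passes signals on to RAS, read 33.9, 61.9 and 35.2 FPKM in SNHG10 and 51.0, 43.4 and 34.6 in LacZ libraries. GRB10, an inhibitory adaptor of INSR and IGF1R, read 9.79, 8.66 and 6.91 FPKM in the SNHG10 libraries, against 8.25, 15.4 and 17.04 in the LacZ libraries (limma adjusted p = 0.911). Of the 28, 11 log2 differences were positive and 17 negative, a split that median-ratio scaling moved to 15 and 13.

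Inhibitors, phosphatases and endocytosis genes had rows for 36 of 37, and 0 of 35 tested were called, as were 0% of all genes tested. CLTC, the clathrin heavy chain, read 145, 115 and 119 FPKM in the SNHG10 libraries, against 118, 109 and 111 in the LacZ libraries. The receptor phosphatase PTPRF read 85.6, 86.3 and 84.8 FPKM in the SNHG10 libraries, against 79.1, 79.4 and 93.3 in the LacZ libraries. AP2M1, of the clathrin adaptor that gathers receptors, read 81.4, 72.8 and 73.1 FPKM in SNHG10 and 92.1, 83.0 and 90.05 in LacZ libraries, the probe sets not overlapping (limma adjusted p = 0.912). PTPRJ, a phosphatase that acts on EGFR and MET, read 12.03, 14.9 and 16.3 FPKM in the SNHG10 libraries, against 17.9, 24.9 and 21.6 in the LacZ libraries, also without overlap. Its log2 difference was -0.54 ± 0.22 (SE), with a limma adjusted p of 0.885, and it was the 1 gene of the list with an unadjusted p under 0.05, where 3.32% of all genes were lower. SOCS2, a suppressor of cytokine signalling, read 9.67, 7.18 and 7.03 FPKM in the SNHG10 libraries, against 4.60, 3.00 and 7.33 in the LacZ libraries (limma adjusted p = 0.909). Of the 35 tested, 2 lay wholly lower with SNHG10 probes and 1 wholly higher, against 7.21% and 4.22% of all genes tested. The list had 18 positive and 17 negative log2 differences, with a median of 0.01.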

How the data were processed

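RNA was measured in 6 ChIRP libraries of SK-Hep1 cells. Each deposited file lists FPKM by transcript (per the file headers). The submitters' processing notes name Bowtie2 2.1.0 and hg19, and the program that estimated FPKM is not given in the sources used here. All rows are marked protein coding. Low values reached 5e-06 FPKM, so whole reads could not be recovered, the depth is unknown, and no interval or detection limit was computed. Groups and replicate numbers came from the titles. Separate cultures are not stated, so the p-values reflect differences among these 6 libraries that may be technical.

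FPKM were summed per gene symbol. A gene (10304) or transcript row (16618) had to reach 1 FPKM in 3 or more libraries. The test was limma 3.58.1 under R 4.3.3 (lmFit, eBayes with trend) on log2(FPKM + 1). Adjustment was by Benjamini-Hochberg over all of them, with a threshold of 0.05. The 9 receptors also had a two-sided exact permutation test of the mean log2 difference over 20 assignments (scipy 1.17.1, pandas 2.3.3), whose smallest p is 0.1. The fit was tried on these FPKM shuffled among libraries within each row, with known fold changes put into some rows. How often such changes were recovered is not reported here. The members and lists were chosen with earlier results of these data known. Named were the 9 receptors, other receptor tyrosine kinases with a mean of at least 1 FPKM, and in each other list the 3 most abundant genes and the 2 with the smallest p. A gene that this rule named is not reported here. The order of levels was not tested. Same-numbered libraries deviated together at r = 0.015, 0.012 and 0.016 over genes. Other pairs across the probe sets lay lower, at -0.024 to 0.0085. All were near 0, and the numbers were therefore not taken to pair libraries. Alternatives were pseudocounts of 0.1 and 5, other filters, median-ratio and quantile scaling, no trend, robust eBayes, a replicate block, each library left out and single transcripts in place of sums.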

Additional observations from a re-analysis of the deposited data

How the results depend on the processing

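None of the 9 receptors passed limma's threshold in any alternative run (adjusted p 0.882 to 1.00). With the replicate number as a block, 0 genes and 0 transcript rows were called in either direction, and no receptor's call changed. Same-numbered libraries deviated together at r = 0.015, 0.012 and 0.016, above the -0.024 to 0.0085 of the other pairs across probe sets. These values over all genes were taken as too small to read the numbers as a pairing. Genes called, 0 higher and 0 lower, were 0 to 1 in each direction over leave-one-out runs, and 2 and 2 with the transcript of highest mean alone. Transcript rows called, 8 higher and 7 lower, were 3 and 2 with a pseudocount of 0.1 or of 5, 3 and 3 with no filter or at least 5 FPKM, 26 and 27 without trend, and 0 and 0 in every leave-one-out run. Log2 differences changed sign for EGFR (-0.038), MET (0.054), AXL (-0.33) and IGF1R (-0.22) with the row of longest span, and for EGFR (-0.038), MET (0.054) and DDR1 (-0.21) with the row of highest mean. Over leave-one-out runs they ran from -0.40 to 0.34 for EGFR, -0.39 to 0.76 for IGF1R and -0.18 to 0.0041 for EPHA2 and its row EPHA2-201. For single rows they ran from -0.29 to 0.14 for EGFR-201, -0.85 to 1.84 for EGFR-204, -0.040 to 0.18 for MET-202, -1.58 to 0.29 for MET-203, -0.072 to 1.26 for DDR1-223, -1.35 to 0.36 for DDR1-235 and -0.41 to 1.83 for IGF1R-204. Median-ratio scaling put EGFR-201 at 0.0099, quantile normalization put it at 0.0019, and a pseudocount of 0.1 put DDR1-235 at 0.20. The cause of these changes was not tested. In the order of levels, the highest-mean row put EPHA2 at position 2, IGF1R at 6, DDR1 at 7 and INSR at 8. The longest row put EPHA2 at 2, IGF1R at 5, INSR at 6, DDR1 at 7 and ERBB2 at 8, and the LacZ mean put MET at 3, EPHA2 at 4 and DDR1 at 6. Leaving out 1 library gave positions 3 to 4 for MET and EPHA2 and 5 to 6 for DDR1 and ERBB2. FGFR1 and INSR did not reach the filter of 5 FPKM, no single FGFR1 row passed the main filter, nor did the longest ERBB2 row, so these gave no value. The longest-row and leave-one-out order settings were chosen after seeing the data. The depth is unknown for all 9 receptors. ERBB2 and FGFR1 each have a library at 0, and whether these are failed estimates was not tested.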
